A study of Macaca mulatta with 12 samples.

Results

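Activated B cells were the cells that the authors' deposited annotation places in the cluster of that name, 877 of 13849 cells in the expression table and of 13324 cells named as B cells. Blood mononuclear cells came from 6 healthy rhesus macaques, juveniles of Indian origin aged 2 to 3 years that had received no treatment. Batch 1 held the 2 males and batch 2 the 4 females, so sex and batch cannot be told apart. From each animal a 5′ single-cell expression library was made, along with a library of B cell receptor (BCR) transcripts. The cluster held 233 cells in male 1, 341 in male 2, 119 in female 1, 70 in female 2, 98 in female 3 and 16 in female 4. The other 11 named subtypes were 3 sets of naive cells, 6 sets with MBC in their names, M-MZL BC and antibody-secreting cells, and these names are used here as deposited.

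A B cell that meets antigen or a microbial signal switches on immediate early transcription factors of the EGR, NR4A and AP-1 families, then NF-kB target genes and MYC, which drives growth and ribosome production. Such cells also secrete chemokines that draw in T cells and put costimulatory molecules on their surface. CD69, an early activation antigen, and S1PR1, the receptor through which lymphocytes leave tissue, oppose each other at the membrane.

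Library totals ran from 3642517 unique molecular identifiers (UMIs) in female 4 to 20023015 in female 3. Activated B cells had a median of 4880 and 5288 UMIs per cell in the males and 6155 to 6551.5 in the females. Counts summed over the cluster were lowest in female 4, with 115740 UMIs, and highest in male 2, with 2186130. Mitochondrial transcripts averaged 2.42% ± 0.714 and ribosomal protein transcripts 17.1% ± 1.70 of UMIs (SD, n = 6), close to 2.53% ± 0.691 and 19.1% ± 2.02 in M-MZL BC. The authors' second, reference-based label called 788 of the cells B intermediate, 83 B naive, 5 B memory and 1 Platelet. Barcodes found in more than 1 library numbered 86 in the whole table and 12 among Activated B cells.

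The label was checked against its markers, the chemokine gene CCL3, the growth factor gene CSF1 (macrophage colony-stimulating factor) and the transcription factor gene MYC, and their levels are a description, since expression clusters rest on the same kind of values. Levels are CPM, the counts summed over an animal's cells of a subtype and scaled to a fixed library total. CCL3 stood at 172 CPM in male 1, 160 in male 2, 304 in female 1, 52.6 in female 2, 279 in female 3 and 86.7 in female 4. The level was 3.05 CPM in Naive B cells 1 and 17.7 in C-MBC 1, the highest mean elsewhere, and 5 of the 6 Activated sums lay above every other sum. CSF1 stood at 258, 323, 201, 167, 197 and 260 CPM in male 1, male 2 and females 1 to 4, against a highest mean elsewhere of 65.7 in C-MBC 1. MYC stood at 237, 354, 359, 476, 327 and 217 CPM in the same order, against at most 65.7 in M-MZL BC. For CSF1 and MYC all 6 Activated sums lay above every sum of the other subtypes, and the markers were highest in the cluster on average.

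**Figure D1:**
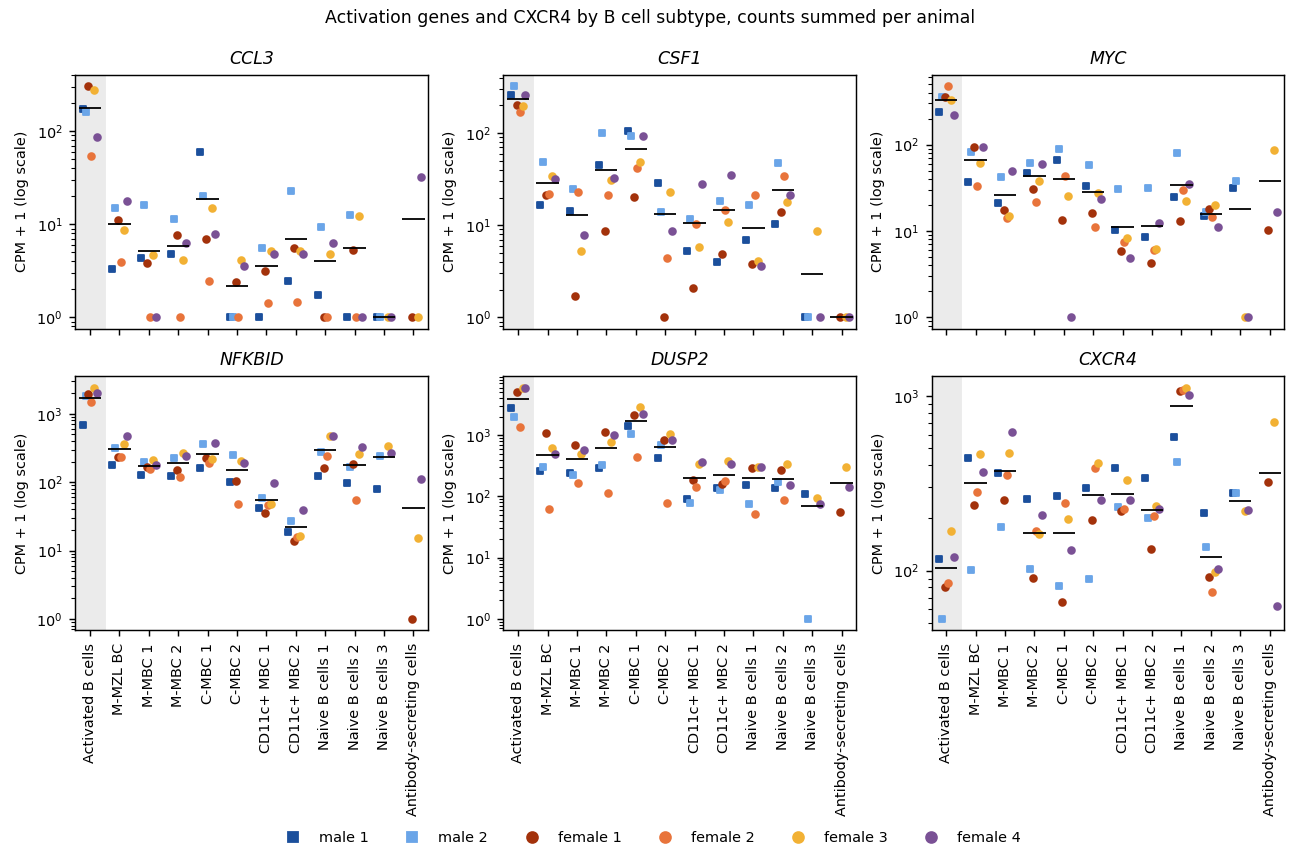
Levels of 6 genes in counts summed per animal (CPM + 1, log axis) in Activated B cells (left, shaded) and the 11 other subtypes; each point is 1 animal and the black bar the mean. CSF1, MYC and NFKBID lie above every other sum in all 6 animals, DUSP2 overlaps C-MBC 1, and CXCR4 averages 103 CPM in Activated B cells and 879 CPM in Naive B cells 1.

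Not every cell of the cluster held these transcripts. With each cell thinned to 2000 UMIs (851 Activated B cells, 26 left out, and 1572 Naive B cells 1, 42 left out), CCL3 was seen in 10.6% ± 5.07 of Activated B cells and 0.645% of Naive B cells 1 (mean over 6 animals ± SD). CSF1 was seen in 19.6% ± 5.28 and 1.19%, and MYC in 33.6% ± 5.07 and 4.07%. Median UMIs before thinning were 5789 and 4134. The lowest share of Activated B cells in any animal was 4.29% for CCL3, 12.9% for CSF1 and 25.8% for MYC. The highest share in any animal's Naive B cells 1 was 1.94%, 2.94% and 9.06%. Free RNA can give UMIs in cells that do not express a gene, and its part in these shares was not tested. The CPM of a sum does not tell more cells with a transcript from more transcripts per cell. At least 1 of the 3 transcripts was present in 436 of 851 thinned cells (51.2%), of which 321 had 1, 100 had 2 and 15 had all 3. The other subtypes had at least 1 in 1.92% to 10.5% of cells. Without thinning the share was 74.3%, and CCL3, CSF1 and MYC were seen in 21.4%, 34.9% and 57.1% of Activated B cells, against 0.942%, 2.16% and 8.18% of Naive B cells 1. Genes seen in most cells of the cluster were NFKBID (76.4% against 29.3%), DUSP2 (81.6% against 14.6%) and EGR1 (61.2% against 9.43%), whereas CD69 was common in both (80.2% against 70.3%).

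Over 9410 genes, the mean log2 CPM of Activated B cells was most like that of M-MZL BC (Pearson r = 0.966 across genes, which are not independent replicates), then M-MBC 2 (0.955) and C-MBC 1 (0.952). Naive B cells 1 (0.9197) and antibody-secreting cells (0.731) lay farther away. A gene was counted as higher or lower where it passed a log2 difference of 1 and had the same direction in every animal, with no p-value. Against the mean of the other 11 subtypes 415 genes (4.41%) were higher and 148 (1.57%) lower. Of these, 115 and 43 had another subtype at 0 in every sum, mostly Naive B cells 3 or antibody-secreting cells, where a fitted mean of the others is not dependable. Leaving them out, 300 were higher and 105 lower. Naive B cells 2 and 3 had a median of 3188 and 1811 UMIs per cell (mean over animals), against 5990.5 in Activated B cells. Their ribosomal protein transcripts averaged 3.91% and 5.74% of UMIs, against 17.1%. With these 2 subtypes and antibody-secreting cells out of the mean, 299 genes were higher and 190 lower. Against M-MZL BC 216 (2.30%) were higher and 77 (0.818%) lower, against M-MBC 2 262 (2.78%) and 146 (1.55%), and against Naive B cells 1 498 (5.29%) and 368 (3.91%). The counts of lower genes depended on the animals and the filter. Lower than in M-MZL BC were 157 genes without female 1, 119 without female 3, 122 without female 4 and 126 without male 2. Lower than in M-MBC 2 were 223 without female 1 and 251 without female 4. Fewer animals then had to share a direction, and the part of this in the counts was not tested. With no filter on low counts 576 genes were lower than the mean of the others.

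Genes of NF-kB signalling were higher for 9 of 22 measured members and lower for 0 against the mean of the other subtypes, and for 7 against M-MZL BC, 10 against M-MBC 2 and 8 against Naive B cells 1, with 0 lower each time. The shares of all genes that were higher were 4.41%, 2.30%, 2.78% and 5.29% in the same order. The list's median log2 difference was 0.66 against M-MZL BC and 0.84 against Naive B cells 1, beside medians over all genes of -0.04 and -0.02. NFKBID, an inhibitor of the IkB family that acts in the nucleus, stood at 677, 1847, 1941, 1485, 2413 and 1984 CPM in male 1, male 2 and females 1 to 4. Its highest sum elsewhere was 480 CPM, its mean 301 CPM in M-MZL BC and 290 in Naive B cells 1, and its log2 difference from the mean of the others 3.80 (SE 0.11). Male 1 was the lowest of the animals, still above every sum of the other subtypes. TNFAIP3, which encodes the deubiquitinase A20, averaged 683 ± 328 CPM in Activated B cells, against 219 in M-MZL BC and 303 in Naive B cells 1. NFKB1, which encodes the p50 subunit, averaged 1826 ± 256 CPM, against 478, 712 and, in Naive B cells 3, 1307. NFKBIA and NFKBIE, which encode cytoplasmic inhibitors, differed by 2.02 (SE 0.14) and 2.00 (SE 0.12) from the mean of the others. NFKBIA differed by 0.65 from Naive B cells 1, short of the fold used. The adaptor gene TRAF1 stood at 8.66 CPM in male 1 and 49.7 to 239 CPM in the other 5 animals, against means of 8.54 CPM in M-MZL BC and 48.9 in C-MBC 1. Male 1 thus overlapped the other subtypes for TRAF1.

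Cytokine and chemokine genes were higher for 11 of 18 measured members against the mean of the other subtypes, and for 6 against M-MZL BC and 9 against Naive B cells 1, where 1, IL16, was lower (-1.85). The shares of all genes that were higher were 4.41%, 2.30% and 5.29% in the same order. The medians were 0.96 against M-MZL BC and 2.04 against Naive B cells 1. Against those subtypes CCL3 differed by 4.60 (SE 0.36) and 6.18 (SE 0.44), and CSF1 by 3.17 and 5.05. CCL4L1, which shares sequence with near-identical chemokine genes so that its counts are uncertain, stood at 532 CPM in male 1, 62.6 in male 2, 719 in female 1, 78.9 in female 2, 296 in female 3 and 21.7 in female 4. In 3 animals it lay above every other sum, and in the other 3 it overlapped M-MZL BC, whose sums reached 82.9 CPM. CCL22, a ligand of CCR4, stood at 210 CPM in female 2, 3.33 to 65.0 in the other 5 animals, and 0 in every sum of Naive B cells 1. IL10, the anti-inflammatory cytokine, averaged 24.7 ± 18.3 CPM, against 3.41 in M-MZL BC and 0.283 in Naive B cells 1. TNFSF9, the ligand of 4-1BB, averaged 248 ± 132 CPM, against 80.0 in M-MZL BC and 105 in M-MBC 2. CXCL10, an interferon-induced chemokine, was uneven, with 225 CPM in female 2, 0 to 24.8 CPM elsewhere, and a mean of 67.9 CPM in M-MZL BC. The cytokine genes that lay highest in the cluster therefore differed among animals, with CCL22 and CXCL10 peaking in female 2 and CCL4L1 in male 1 and female 1. TNF and LTA, named after their values were seen, averaged 157 ± 95.1 and 41.4 ± 25.8 CPM, against 36.5 and 21.0 CPM in M-MZL BC. C-MBC 1 averaged 200 CPM of TNF, above the Activated mean.

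Immediate early genes were higher for 11 of 24 members against the mean of the other subtypes, for 14 against M-MZL BC and for 9 against Naive B cells 1, where JUN was lower (-1.28). The medians were 1.17 and 0.82. Of all genes 4.41% were higher than the mean of the others, 2.30% than in M-MZL BC and 5.29% than in Naive B cells 1. DUSP2, a nuclear phosphatase of MAP kinases, stood at 2812, 1950, 5092, 1380, 5961 and 5994 CPM in male 1, male 2 and females 1 to 4, against means of 1696 in C-MBC 1, 468 in M-MZL BC and 195 in Naive B cells 1. The transcription factor gene EGR1 stood at 282 CPM in female 2 and 1039 to 2292 in the other 5 animals, against 1383 CPM in C-MBC 1, 297 in M-MZL BC and 128 in Naive B cells 1. EGR2 averaged 260 ± 51.1 CPM, against 221, 16.9 and 13.3. For EGR1 and EGR2 the level of C-MBC 1 overlapped that of Activated B cells, and EGR2 reached 467 CPM in 1 sum of C-MBC 1. EGR3 stood at 89.2 ± 42.7 CPM, against 18.1 in C-MBC 1, 8.60 in M-MZL BC and 6.02 in Naive B cells 1, with 5 of 6 sums above every other. NR4A3, an orphan nuclear receptor induced by antigen receptor signals, averaged 670 ± 198 CPM, against 354 in C-MBC 1 and 84.5 in Naive B cells 1. KLF10 averaged 357 ± 165 CPM, against 155 in M-MBC 2, its highest mean elsewhere. Female 2 had the lowest level of the 6 animals for DUSP2, EGR1, EGR3, NR4A3 and KLF10.

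Genes of the MYC programme were higher for 11 of 36 members against the mean of the other subtypes and lower for 0, and 6 were higher against M-MZL BC, 5 against M-MBC 2 and 9 against Naive B cells 1. The medians were 0.47, 0.53 and 0.71, so most members differed less than the fold used. MYC itself differed by 3.91 (SE 0.19) from the mean of the others, 2.39 from M-MZL BC and 3.52 from Naive B cells 1. EIF4A1, the RNA helicase of translation initiation, averaged 616 ± 94.3 CPM, against at most 380 in C-MBC 1, and all 6 Activated sums lay above every other sum. The ribosome biogenesis genes NOP16 and PPAN averaged 42.7 ± 18.3 and 140 ± 76.5 CPM, against 20.3 and 110 in M-MZL BC. GNL3, a nucleolar GTPase, averaged 144 ± 39.4 CPM, against 60.2 in M-MZL BC and 132 in antibody-secreting cells. TFRC, the transferrin receptor, averaged 114 ± 65.3 CPM, against 32.3 in M-MZL BC and 20.1 in Naive B cells 1. The chaperone gene HSP90AB1 averaged 2924 ± 385 CPM, against 1606 in M-MZL BC, again with 6 of 6 sums above every other. Genes of cytosolic ribosomal proteins and of oxidative phosphorylation passed the fold for 0 of 17 and 0 of 21 members against M-MZL BC and against Naive B cells 1. Over all genes 2.30% were higher and 0.818% lower than in M-MZL BC, and 5.29% and 3.91% than in Naive B cells 1. Lists this short would hold few such members at those shares. Against the mean of the other subtypes 1 ribosomal protein gene was higher. Of all genes 4.41% were higher in that comparison, and 2.78% against M-MBC 2.

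Surface molecules of activation were higher for 15 of 30 members against the mean of the other subtypes, for 11 against M-MZL BC (median 0.99), 9 against M-MBC 2 (0.70) and 16 against Naive B cells 1 (1.09). The shares of all genes that were higher were 4.41%, 2.30%, 2.78% and 5.29% in the same order. IL4R and TNFRSF13C, the interleukin 4 and BAFF receptors, were lower than in Naive B cells 1 (-1.81 and -1.10). SEMA7A, a membrane-anchored semaphorin, stood at 189, 492, 306, 418, 410 and 531 CPM in male 1, male 2 and females 1 to 4, against 62.1 in M-MZL BC and 34.9 in Naive B cells 1. CD83, which stabilises MHC class II at the surface, averaged 4480 ± 1007 CPM, against 1341 and 2950. CD69 averaged 3167 ± 1646 CPM, against 1072 and 1592, and ran from 1148 CPM in female 2 to 5295 in female 3. CD274, which encodes PD-L1, averaged 89.3 ± 49.5 CPM, against 24.9 and 12.6, and reached 124 CPM in a sum of another subtype. The interleukin 2 receptor gene IL2RA stood at 189 CPM in female 2 and 11.9 to 82.8 in the others, with means of 26.7 CPM in M-MZL BC and 33.9 in Naive B cells 1. The costimulatory genes CD80, CD86 and CD70, named after their values were seen, differed by 3.99, 4.33 and 5.70 from Naive B cells 1, but by 0.67, 1.47 and 1.27 from M-MZL BC and by -0.40, -0.35 and -0.31 from M-MBC 2. BCL2A1, an NF-kB-induced survival gene, averaged 1339 ± 498 CPM, against 732 in C-MBC 1, 194 in M-MZL BC and 149 in Naive B cells 1. BCL2 averaged 1143 ± 291 CPM, against 650 in M-MZL BC and 539 in Naive B cells 1.

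**Figure D2:**
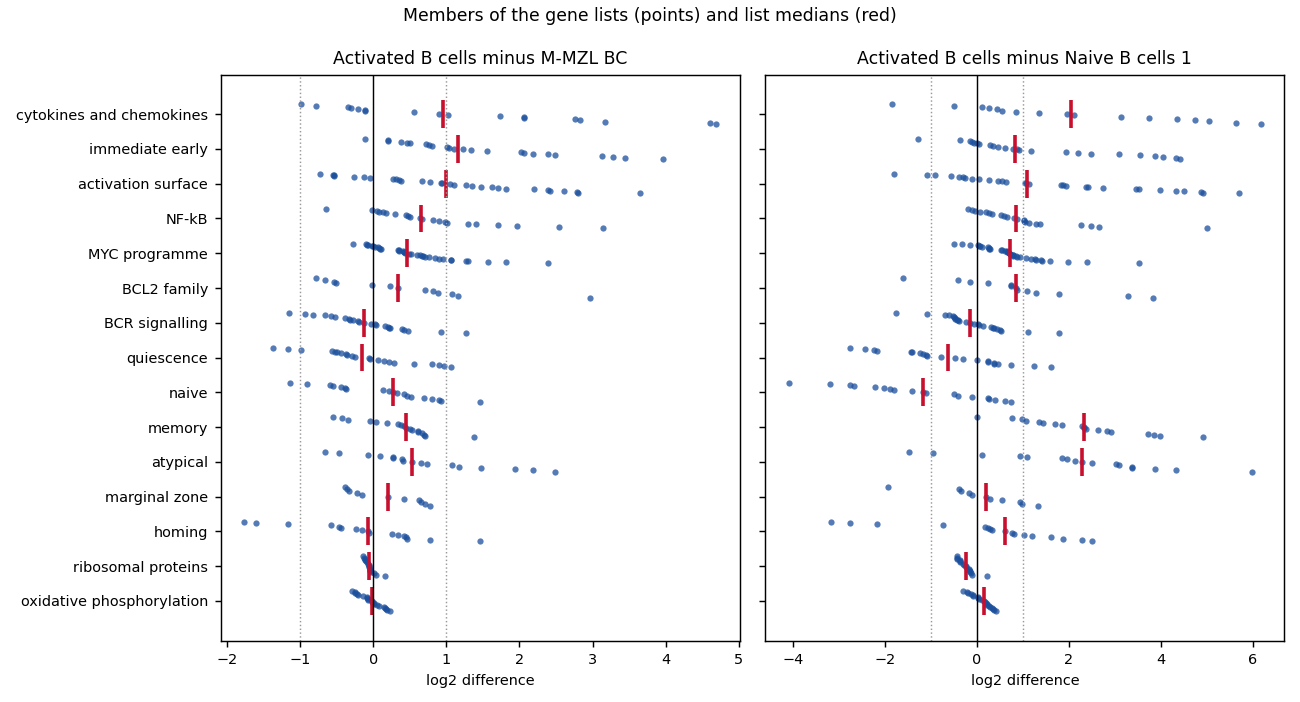
Log2 differences of the measured members of 15 gene lists (points) and list medians (red bars), Activated B cells minus M-MZL BC (left) and minus Naive B cells 1 (right). Dotted lines mark a difference of 1, and points of members at 0 in either subtype are not drawn, while the medians count all measured members; the cytokine median is 0.96 on the left and 2.04 on the right, and the memory median 0.45 and 2.33.

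Of 25 BCR signalling genes 1 was higher and 1 lower than in M-MZL BC, with a median of -0.13. The higher one was NFATC1, the calcium-dependent transcription factor, at 632 ± 110 CPM in Activated B cells and 264 in M-MZL BC, with 6 of 6 sums above every other. The lower one was CD79B, a signalling chain of the receptor, at 700 ± 342 CPM in Activated B cells, against 1472 in M-MZL BC and 1361 in Naive B cells 1. IRF4, a dose-dependent regulator of B cell fate, averaged 892 ± 362 CPM, against 210 in M-MZL BC and 434 in antibody-secreting cells. JCHAIN, the joining chain of polymeric immunoglobulin, averaged 277 ± 157 CPM, close to 281 in M-MZL BC and far below 7812 in antibody-secreting cells. MKI67, a proliferation marker, averaged 4.66 ± 4.41 CPM, against 640 in antibody-secreting cells. Over all genes 2.30% were higher and 0.818% lower than in M-MZL BC, and 5.29% were higher than in Naive B cells 1. Of 19 cell cycle genes 0 passed the fold against M-MZL BC, and 2 were higher than in Naive B cells 1. These were E2F1 (2.08) and CDKN1A (1.79), the cell cycle inhibitor p21, which averaged 746 ± 148 CPM, against 408 in M-MZL BC and 243 in Naive B cells 1.

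Genes lower in the cluster included receptors of positioning. CXCR4, the receptor for CXCL12, stood at 115 CPM in male 1, 51.9 in male 2, 79.9 in female 1, 83.7 in female 2, 168 in female 3 and 119 in female 4. The mean was 103 ± 40.3 CPM in Activated B cells, against 315 in M-MZL BC and 879 in Naive B cells 1, whose sums of 419 to 1113 CPM did not overlap those of the cluster. Sums of other subtypes did, among them C-MBC 1 (65.2 to 267 CPM), M-MBC 2 (89.3 to 255) and Naive B cells 2 (74.0 to 213). The lowest sum of M-MZL BC, 99.8 CPM in male 2, also lay within the cluster's range. S1PR1 averaged 53.5 ± 45.5 CPM, against 140 in M-MZL BC and 241 in Naive B cells 1. CCR7, the receptor for entry into lymph nodes, went the other way, at 793 ± 496 CPM in Activated B cells, against 283 in M-MZL BC and 496 in Naive B cells 1. Of 22 quiescence genes 9 were lower than in Naive B cells 1 and 1 was higher. Among the lower were TXNIP (-2.44), PIK3IP1 (-2.24), KLF2 (-1.12) and BTG1 (-1.17). Against M-MZL BC 1 was higher and 2 lower, TXNIP (-1.37) and S1PR1 (-1.17). The list went both ways against M-MBC 2, with 3 higher and 3 lower (median 0.11). Against the mean of the others 4 were higher and 3 lower. Of all genes 3.91% were lower than in Naive B cells 1 and 0.818% than in M-MZL BC. The shares lower were 1.55% against M-MBC 2 and 1.57% against the mean. ZFP36L1, an mRNA decay factor, was higher, at 1717 ± 454 CPM, against 832 in M-MZL BC and 438 in M-MBC 2.

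The largest differences below the mean of the others were in genes of other subtypes. AUTS2 averaged 5.60 ± 7.10 CPM, against 170 in Naive B cells 3 (-2.17, SE 0.70), and PDE3B 0 to 26.3 CPM over the animals, against means of 168 in Naive B cells 1 and 330 in Naive B cells 3 (-1.66, SE 0.28). TP53INP1 averaged 6.67 ± 5.80 CPM, against 95.6 in Naive B cells 1. EYA2, KIR3DL0, AFAP1L2, STX2, SLC24A4 and ADCY9 averaged 0.225 to 1.78 CPM in the cluster. Their highest means elsewhere lay in the CD11c+ subtypes, at 39.5 to 500 CPM, and KIR3DL0 shares sequence with other receptor genes of its family. BAZ2B, CCDC134 and RAP1GAP2 differed by -1.94, -1.79 and -1.67, and against M-MZL BC all 3 differed by less than 0.1. The high genes MAST4, SULF2 and NIBAN3 averaged 68.9, 67.7 and 44.3 CPM, against 56.0, 23.3 and 55.6 in M-MZL BC and 51.3, 46.8 and 13.3 in M-MBC 2. Their difference from the mean of the others rests in part on subtypes at 0.

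Memory genes were higher than in Naive B cells 1 for 15 of 19 members (median 2.33) but passed the fold against M-MZL BC for 1, LGALS3 (1.38, list median 0.45, or 0.42 with the member at 0 in M-MZL BC set to its bound), and against M-MBC 2 for 0. Naive genes were lower than in Naive B cells 1 for 10 of 19, among them TCL1A (-4.10), FCER2 (-2.23) and BTLA (-2.03), and higher than in M-MBC 2 for 7, FCER2 (2.85) among them. Of the atypical memory list 9 of 17 were higher than in Naive B cells 1, and 1 was higher and 5 lower than in M-MBC 2. The Fc receptor-like gene FCRL5 averaged 628 ± 193 CPM, against 160 in M-MZL BC, 210 in M-MBC 2 and 279 in C-MBC 1, and FCRL3 63.5 ± 46.0, against at most 41.7 in M-MZL BC. Marginal zone genes passed the fold against M-MZL BC and Naive B cells 1 for 0 of 11, and against M-MBC 2 for 4 higher, among them the complement receptors CR2 (4.08) and CR1 (2.09), and 1 lower. Over all genes 2.30% were higher and 0.818% lower than in M-MZL BC. The shares were 5.29% and 3.91% against Naive B cells 1, and 2.78% and 1.55% against M-MBC 2. CR2 averaged 59.6 ± 25.5 CPM in Activated B cells, against 47.1 in M-MZL BC and 3.73 in M-MBC 2.

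Against M-MZL BC, where 2.30% of all genes were higher, the other lists had these counts. Interferon response genes passed the fold for 0 of 21 members and heat shock genes for 0 of 12, plasma and secretory genes were higher for 2 of 15, BCL2 family genes for 3 of 13, MHC class II genes for 1 of 12 with 1 lower, germinal centre genes for 1 of 11 (IRF4) with 1 lower, and homing genes for 1 of 17 with 2 lower. Levels of the interferon-induced gene IFIT3 differed widely among animals, from 3.33 CPM in female 1 to 473 in female 2, against means of 126 CPM in M-MZL BC and 138 in M-MBC 2. Female 2 was also the animal with most CCL22, CXCL10, IL2RA and CCR7.

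Markers of other blood cells were read in the same sums. The 5 B cell markers summed to 4197 ± 1232 CPM, within the range of the other subtypes (544 to 5154), with MS4A1, which encodes CD20, at 1683 ± 386 CPM. The 14 T cell markers summed to 345 ± 252 CPM (133.9 to 750), against 126 to 327 in the other subtypes, and 4 of 14 were past the fold above the mean of the others, TRAC, IL7R and CD3D among them. Higher than in Naive B cells 1 were 3 of the 14 (median 1.20). Against M-MBC 2 it was 1 (median 1.18), and against M-MZL BC 0 (median 0.28). Of all genes 5.29%, 2.78% and 2.30% were higher in these comparisons, and 4.41% against the mean of the others. A UMI of CD3D, CD3E or CD3G was found in 238 of 877 Activated B cells (27.1%), 25.2% of M-MZL BC, 20.8% of C-MBC 1 and 7.50% of Naive B cells 1, at median depths of 5730, 5291, 6184 and 4087 UMIs. At least 3 such UMIs were found in 31 Activated B cells. Monocyte markers summed to 72.5 ± 36.6 CPM, against 11.3 to 100.9, with VCAN and FCN1 at 0. NK cell markers summed to 50.9 ± 37.7 CPM, against 27.8 to 263, and platelet and red cell markers to 263 ± 174, against 80.2 to 487. Dendritic cell markers summed to 302 ± 70.5 CPM, against 37.7 to 181, of which IRF8, a gene that B cells also express, made up 276, and CLEC9A, CLEC10A and XCR1 were at 0. The part of T cell transcripts in the differences above was not tested.

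The share of Activated B cells among named B cells was 8.40% in male 1 and 12.7% in male 2, against 4.47%, 4.39%, 3.22% and 2.84% in females 1 to 4. Both males lay above every female. The means were 10.6% and 3.73%, a difference of 6.84 percentage points (exact two-sided permutation test, p = 0.0667, the smallest that 15 arrangements allow). The difference was 9.002 without male 1 and 4.68 without male 2, and it was the same split as the batch. Cells of a sample are not replicates, and with 2 males the design could not pass 0.05.

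The BCR libraries came from the same cells as the expression libraries. Whether immunoglobulin genes entered the clustering is not given in the sources used here. Contrasts with subtypes named as naive, for example, may therefore be set in part by how the clusters were made and named. A BCR contig was found in 94.6% ± 5.81 of Activated B cells, 96.6% of M-MZL BC and 96.2% of Naive B cells 1. Exactly 1 productive heavy chain was found in 683 of the 877 cells, 148 had none and 46 had 2. Of cells with a known constant gene 591 were IgM, 66 IgD, 21 IgG1 and 4 IgA. Somatic mutation was estimated as the divergence of the heavy variable (IGHV) region from a common sequence, the closest 1 for that animal and IGHV gene, where common means at least 3 unswitched cells with 3 different CDR3. A pair near the cluster's median shows what is counted. Both sequences come from male 1, use IGHV3-116 and span 294 bases from framework 1 to framework 3. The common sequence was found in 37 cells, the other in an IgM Activated B cell with 9 mismatches, 2 of them in CDR1 or CDR2 (capitals, divergence 3.06 per 100 bases).
common sequence of male 1: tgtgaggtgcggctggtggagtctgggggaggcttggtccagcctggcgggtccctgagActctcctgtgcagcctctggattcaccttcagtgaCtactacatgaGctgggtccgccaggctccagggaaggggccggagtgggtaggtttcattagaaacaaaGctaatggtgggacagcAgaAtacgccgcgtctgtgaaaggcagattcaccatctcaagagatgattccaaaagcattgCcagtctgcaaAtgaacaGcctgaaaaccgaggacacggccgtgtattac
Activated B cell of male 1: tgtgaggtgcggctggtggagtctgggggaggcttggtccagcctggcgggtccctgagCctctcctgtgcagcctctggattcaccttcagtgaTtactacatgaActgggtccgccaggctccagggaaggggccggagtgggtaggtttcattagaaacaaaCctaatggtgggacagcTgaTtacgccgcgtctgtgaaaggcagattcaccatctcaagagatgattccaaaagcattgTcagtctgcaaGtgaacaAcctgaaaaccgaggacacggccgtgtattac

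Receptors of Activated B cells diverged from the common sequences in every animal. Divergence averaged 2.37 differences per 100 bases in male 1 (169 cells), 3.69 in male 2 (234), 4.75 in female 1 (110), 2.45 in female 2 (42), 3.30 in female 3 (78) and 4.66 in female 4 (11). The mean was 3.54 ± 1.03 in Activated B cells, 2.51 ± 0.328 in M-MZL BC, 2.98 ± 1.30 in M-MBC 2 and 0.113 ± 0.153 in Naive B cells 1 (SD, n = 6). Unswitched cells, those of Naive B cells 1 included, supplied the common sequences. Low divergence in that subtype, with 95.5% of cells at 0, was therefore set in part by the definition. Its highest animal mean was 0.419, in female 4. An unmutated variant carried by too few cells to be common would also count as divergence, and its part was not tested. In 6 of 6 animals divergence in Activated B cells exceeded that of Naive B cells 1 (exact sign-flip test, p = 0.03125, the smallest that 6 pairs allow, adjusted p = 0.125). It was higher than in M-MZL BC in 5 of 6, all but female 2 (difference 1.02 ± 0.903, exact p = 0.0625, adjusted p = 0.214), and than in M-MBC 2 in 4 of 6 (0.561 ± 1.22, exact p = 0.344). The difference from M-MBC 2 was 0.201 without female 1 and 0.845 without female 4. Among 644 cells with a common sequence to compare, 71 (11.02%) had 0 mismatches, 519 (80.6%) had at least 1 per 100 bases and 155 (24.1%) at least 5. At least 1 per 100 bases was found in 70.2% of M-MZL BC, 70.5% of M-MBC 2 and 2.42% of Naive B cells 1.

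Mismatches lay more densely in the parts that contact antigen. In the 635 Activated B cells whose IGHV region had the length of its common sequence, 30.7% of 6171 mismatches fell in CDR1 and CDR2, which made up 14.7% of the bases. That was 7.01 mismatches per 100 CDR bases and 2.74 per 100 framework bases, against 4.58 and 1.87 in M-MZL BC and 4.83 and 2.04 in M-MBC 2. These are counts over cells, given with no test.

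Most Activated B cells were unswitched, and the switched share was uneven, with 5.11% in male 1, 1.66% in male 2, 0.870% in female 1, 13.0% in female 2, 2.27% in female 3 and 18.8% in female 4. Female 4's value rests on 16 cells. The mean was 6.95% ± 7.30, higher than the 0.455% of Naive B cells 1 in 6 of 6 animals (exact p = 0.03125, adjusted p = 0.125). It was higher than the 3.37% of M-MZL BC in 3 of 6 and lower than the 12.4% of M-MBC 2 in 5 of 6 (exact p = 0.0938). Without female 4 the difference was 4.27 percentage points from Naive B cells 1, against 6.50 with all 6, and 1.73 from M-MZL BC, against 3.58. C-MBC 1 and C-MBC 2, with 78.5% and 80.3% switched cells and divergence of 5.56 and 5.51, lay apart.

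**Figure D3:**
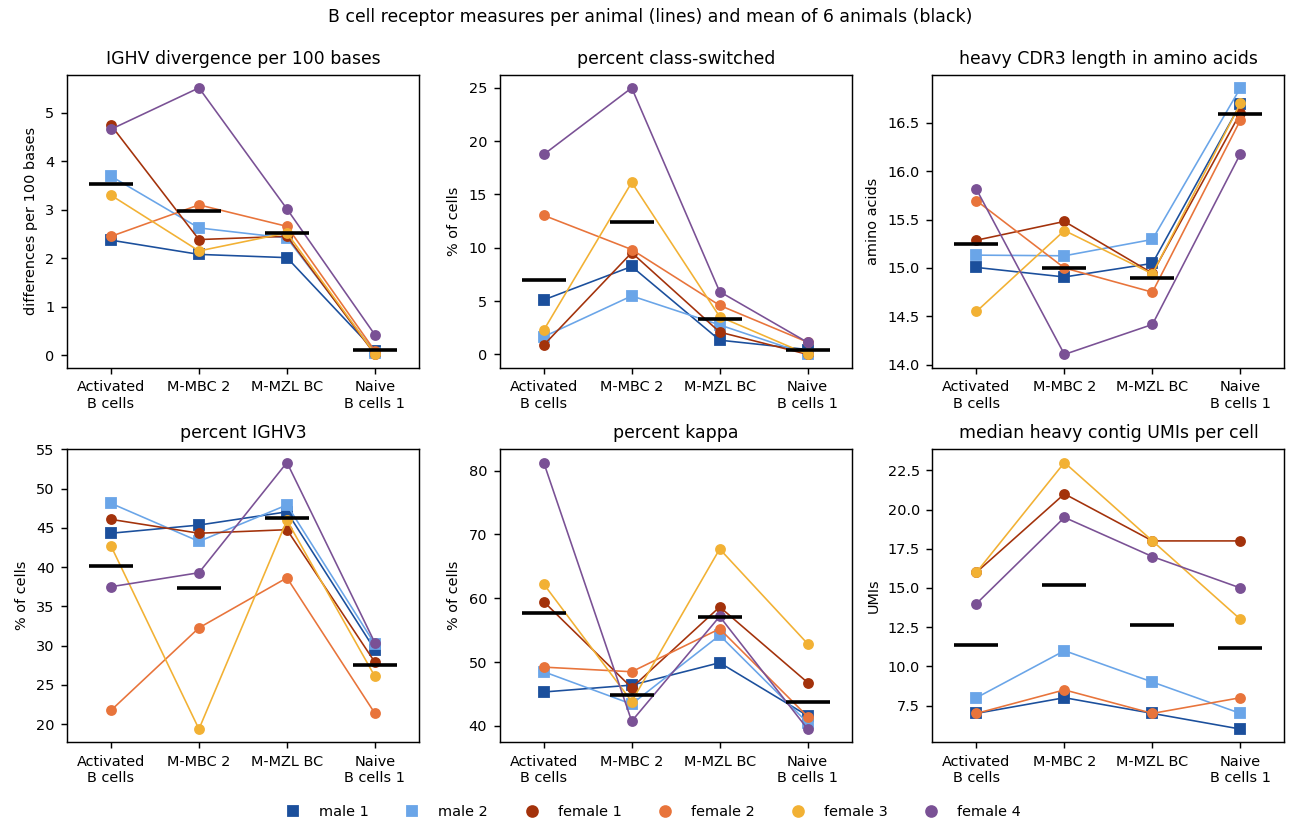
Per-animal values (coloured points joined by lines) and means of 6 animals (black bars) of 6 BCR measures in Activated B cells, M-MBC 2, M-MZL BC and Naive B cells 1, with units on each y axis. In every measure but heavy contig UMIs, Activated B cells differ from Naive B cells 1 in the same direction in all 6 animals. The means of divergence in these subtypes are 3.54 and 0.113 per 100 bases.

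Heavy CDR3 regions of Activated B cells were shorter than those of Naive B cells 1 in 6 of 6 animals, 15.2 ± 0.465 and 16.6 ± 0.232 amino acids (difference -1.35, exact p = 0.03125, adjusted p = 0.125). They differed by 0.348 ± 0.694 from M-MZL BC and 0.246 ± 0.869 from M-MBC 2, with both signs among the animals, and the difference from M-MZL BC was 0.139 without female 4. The kappa light chain was found in 57.7% ± 13.3 of Activated B cells, 57.1% of M-MZL BC, 44.8% of M-MBC 2 and 43.8% of Naive B cells 1. In 6 of 6 animals the kappa share exceeded that of Naive B cells 1 (exact p = 0.03125), and it exceeded that of M-MBC 2 in 5 of 6 (exact p = 0.0938), and in female 4 it reached 81.2%, in 16 cells. Without female 4 the difference was 8.30 percentage points from Naive B cells 1, against 13.9 with all 6 animals, and 7.32 from M-MBC 2, against 12.9. IGHV3 genes were used by 40.1% ± 9.68 of Activated B cells and 27.5% ± 3.44 of Naive B cells 1, higher in 6 of 6 animals (exact p = 0.03125), and by 46.3% of M-MZL BC (difference -6.20, or -4.06 without female 2). Pooled over animals, IGHV1 genes were used by 2.34% of Activated B cells, 2.74% of M-MZL BC and 10.1% of Naive B cells 1. The heavy contig had a median of 11.3 ± 4.46 UMIs per cell in Activated B cells and 15.2 ± 6.74 in M-MBC 2, lower in 6 of 6 animals (exact p = 0.03125), against 12.7 in M-MZL BC and 11.2 in Naive B cells 1. Of the 24 tests of this family 6 reached the smallest possible p and 0 passed 0.05 after adjustment, with 0.125 as the lowest adjusted p.

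The 683 cells with 1 heavy chain fell into 680 clones, taken as the same animal, IGHV, IGHJ and CDR3 nucleotides. Clones of at least 2 cells numbered 10, and 7 of them held a cell of another subtype, 3 in M-MZL BC, 2 in M-MBC 2, 1 in C-MBC 1 and 1 in CD11c+ MBC 1. Cells in such clones made up 1.13% ± 1.48 of Activated B cells, 4.54% of M-MBC 2 and 2.10% of M-MZL BC. The heavy CDR3 of 4 clones show the relatives. Clone 1 of male 2 (IGHV4-80) had 1 IgM Activated B cell and 2 IgM M-MBC 2 cells at divergences of 8.77 to 9.82 per 100 bases. Clone 6 of male 1 (IGHV4-165) paired an Activated B cell with an M-MZL BC cell, both IgM at 8.42. Clone 8 of male 2 (IGHV3-116) paired an Activated B cell with an M-MZL BC cell, of which 1 was IgM and 1 IgG1, at 3.47 and 5.90. Clone 3 of male 1 (IGHV1-200) held 2 Activated B cells at 10.2 per 100 bases.
clone 1: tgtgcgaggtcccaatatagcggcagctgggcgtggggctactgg
clone 6: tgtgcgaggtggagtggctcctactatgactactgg
clone 8: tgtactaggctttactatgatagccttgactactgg
clone 3: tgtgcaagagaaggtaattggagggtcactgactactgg

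To ask which genes went with mutation inside the cluster, Activated B cells at 1 or more differences per 100 bases (mutated) were compared with those under 1 (unmutated) in the 4 animals with at least 10 cells of each. There were 117 and 52 mutated and unmutated cells in male 1, 196 and 38 in male 2, 28 and 14 in female 2, and 65 and 13 in female 3. Median UMIs per cell were lower in mutated cells in all 4, by little in male 1 (4726 against 4854.5) and more in male 2 (4610 against 5708). By edgeR's quasi-likelihood test with the animal as a block, 4 of 3550 genes (0.113%) rose and 8 (0.225%) fell in mutated cells at an adjusted p under 0.05, and 298 had an unadjusted p under 0.05. With DESeq2, or with no block, 0 genes were called.

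Among the genes that rose, RBPJ, the nuclear effector of Notch signalling, stood at 184, 226, 356 and 162 CPM in mutated cells of male 1, male 2, female 2 and female 3, against 54.5, 108, 164 and 88.0 in unmutated cells. Mutated cells were higher in each animal (log2 difference 1.23, SE 0.22, adjusted p = 0.00863 by edgeR). LGALS3, which encodes galectin-3 and belongs to the memory list, rose by 1.49 (SE 0.30, adjusted p = 0.0176 by edgeR), with 554 against 164 CPM in female 2 and 55.0 to 67.0 against 5.15 to 41.9 in the other 3 animals. The chemokine gene CCL5 rose by 1.27 (SE 0.27) and the endoplasmic reticulum chaperone gene HSP90B1 by 0.70 (SE 0.14), both in 4 of 4 animals.

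Among the genes that fell, EGR1 stood at 1065, 885, 129 and 1519 CPM in mutated cells of male 1, male 2, female 2 and female 3, against 1454, 1580, 447 and 2011 in unmutated cells (-0.68, SE 0.13, adjusted p = 0.0137 by edgeR). CD69 (-0.51, SE 0.09) and BTG2 (-0.58, SE 0.13), an antiproliferative gene, were lower in 4 of 4 animals, and FOS (-0.72, SE 0.14) in 3 of 4, with 89.1 against 43.6 CPM in female 2. CCR6, the receptor for CCL20, stood at 41.9 to 64.3 CPM in mutated cells and 105 to 170 in unmutated cells, with no overlap (-1.28, SE 0.25, adjusted p = 0.0137 by edgeR). ZDHHC14 (-1.45), CDK14 (-1.44) and LDLRAD4 (-0.90), an inhibitor of TGF-beta signalling, completed the 8. The cluster's own markers did not pass: CCL3 differed by 0.73 (SE 0.30, adjusted p = 0.458 by edgeR), CSF1 by 0.50 (SE 0.22, 0.550) and MYC by 0.24 (SE 0.17, 0.786), each higher in mutated cells in 3 of 4 animals. Without male 1 the counts were 2 and 0, without male 2 4 and 4, without female 2 9 and 9, and without female 3 5 and 8.

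**Figure D4:**
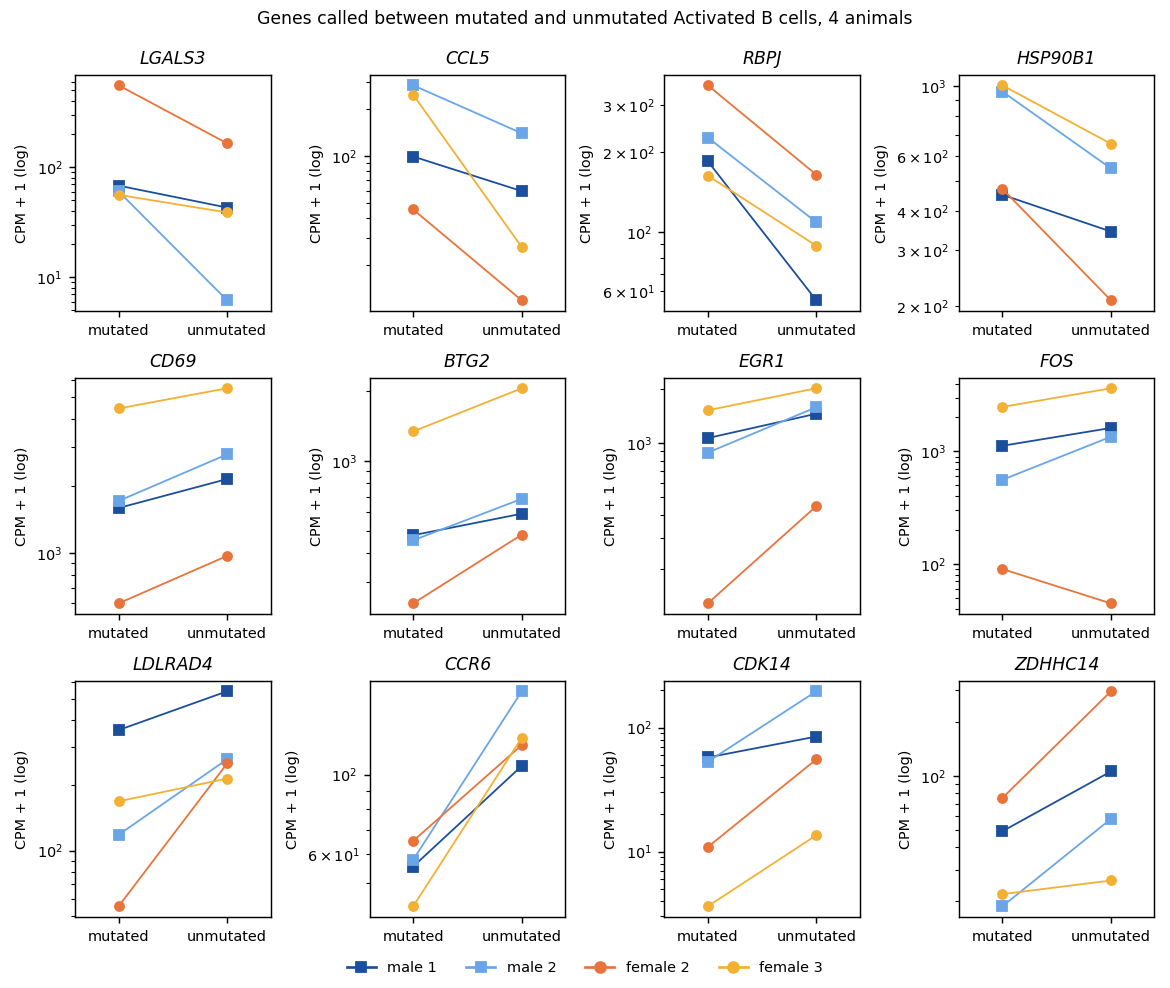
CPM + 1 (log axis) of the 12 called genes in mutated (left) and unmutated (right) Activated B cells of 4 animals, each line joining the 2 classes of 1 animal. LGALS3, CCL5, RBPJ and HSP90B1 are higher in mutated cells in 4 of 4 animals, and FOS is lower in 3 of 4.

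The same split was read, with no test, in the subtypes most like the cluster. RBPJ was higher in mutated cells in 6 of 6 animals of M-MZL BC (99.8 ± 52.5 and 59.8 ± 43.0 CPM in mutated and unmutated cells) and 5 of 5 of M-MBC 2 (115 and 94.5). LDLRAD4 was lower in 5 of 6 and 5 of 5. CCR6 was lower in 5 of 6 animals of M-MZL BC but 2 of 5 of M-MBC 2. HSP90B1 was higher in 3 of 6 and 3 of 5, and EGR1 was lower in 2 of 6 and 3 of 5, so these had no common direction there. For the other called genes the counts are given for M-MZL BC and then M-MBC 2. LGALS3 was higher in 5 of 6 and 4 of 5 animals, and CCL5 in 3 of 6 and 2 of 5. CD69 was lower in 4 of 6 and 3 of 5, and FOS in 2 of 6 and 4 of 5. BTG2 was lower in 3 of 6 and 4 of 5. ZDHHC14 was lower in 5 of 6 and 2 of 5, and CDK14 in 2 of 6 and 4 of 5. Whether the difference of classes differed between subtypes was not tested.

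Male and female Activated B cells were compared last, with sex and batch the same split. Of 6972 genes 11 (0.158%) were higher and 3 (0.043%) lower in males at an adjusted p under 0.05 by edgeR's quasi-likelihood test, and 817 had an unadjusted p under 0.05. Of the 11, 7 were Y-linked: RPS4Y1, DDX3Y, RPS4Y2, UTY, EIF1AY, ZFY and USP9Y. Their mean levels in males ran from 38.3 CPM of USP9Y to 1613 of RPS4Y1, and all but EIF1AY, with 2.39 CPM in 1 female, were at 0 in every female, which matched the labels. RPS4Y1 and RPS4Y2 are near-identical copies, and their counts could be split.

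Most of the other called genes stood apart in further subtypes too. ATP6, a mitochondrially encoded subunit of ATP synthase, stood at 789 and 795 CPM in the males and 2504 to 3321 in the females (-1.89, SE 0.22, adjusted p = 0.00271 by edgeR), with 714 and 2459 CPM on average in Naive B cells 1. The AP-1 gene JUNB averaged 256 CPM in males and 1551 in females (-2.66, SE 0.40), with 103 and 1169 in Naive B cells 1, and SERP1 23.9 and 149 (-2.77, SE 0.43), with 15.0 and 206. ZC3H10, a zinc finger gene, averaged 4534 and 1203 CPM (1.85, SE 0.23), with 5378 and 1443 in Naive B cells 1, and ANO10 221 and 42.0 (2.28, SE 0.30), with 313 and 57.7. For these 5 genes males and females did not overlap in Activated B cells, M-MZL BC or Naive B cells 1. CDK14 averaged 99.7 and 6.05 CPM (3.76, SE 0.53) in males and females and DGKH 71.7 and 5.27 (3.42, SE 0.53), with 25.1 and 6.13, and 13.7 and 5.46, in Naive B cells 1. There males and females overlapped for both genes. CDK14 ran from 11.3 to 38.9 CPM in males and 1.53 to 12.2 in females, and DGKH from 9.85 to 17.6 and 0 to 14.3. Leaving out 1 animal gave 5 to 81 genes higher and 0 to 77 lower, with 5 and 0 without male 1, 9 and 1 without male 2, and 81 and 77 without female 2. Without female 1 they were 8 and 1, without female 3 6 and 1, and without female 4 10 and 2. Where a male was left out, the lone male was assumed to vary like the females, whose spread alone entered the test.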

How the data were processed

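The authors deposited raw UMI counts per gene and cell, with a cell table that held, per the file headers, the percent of mitochondrial and ribosomal UMIs, a doublet call (all Singlet) and the cluster names. BCR files held counts of reads and UMIs per contig, deposited by the authors with annotated sequences. The submitters' processing notes list Seurat 5.0.1, Cell Ranger 9.0.1 and R 4.3.1 with no roles. The build and annotation of the genome, and how the clusters were made, are not given in the sources used here. All deposited cells were kept as annotated, and doublets were not called again.

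Cells are not replicates, so counts were summed per animal and subtype (67 sums of 10 or more cells; Contamination left out). Unnamed identifiers (5813, 14.8% of UMIs) and 23 named immunoglobulin genes (0.185%) stayed out of library sizes and tests. Sums were fitted with edgeR 4.0.16 in R 4.3.3 (filterByExpr, TMM, animal as a block; both classes come from the same animal, which is the pairing), and adjusted p-values are Benjamini-Hochberg over all genes tested. BCR measures used exact two-sided sign-flip permutation tests over animals, adjusted over 24 tests. SDs are over animals and include each library's technical noise. Scripts were tested on simulated data.

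The cluster, its markers, the 27 gene lists and the tests were chosen with earlier results of these data known. Genes named are the markers, the 12 largest differences in each direction at a mean log2 CPM of 4 or more, the 3 or 6 largest per list and the called genes. Other members of a list, given by a log2 difference in parentheses, and genes described so were named after their values were seen. Differences of the cluster from other subtypes carry no p-value because a cluster of cells rests on the expression of the same genes.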

Additional observations from a re-analysis of the deposited data

Results flagged for a closer look

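Dixon's criterion (gap over range above 0.625) was applied to 116 groups of 6 animals. These were the share of Activated B cells, the BCR measures in Activated B cells, and log2 differences of named genes. The last were each animal's own difference between Activated B cells and the mean of the other subtypes. In 6 groups, all of them log2 differences of genes, an animal lay far from the others. Chance gives about 1 in 20 such groups. TRAF1 was at 1.12 in male 1, against 2.95 to 3.80 in the other 5 animals. JCHAIN was at 0.78 in female 2, against 2.34 to 2.85. CD3G was at -0.64 in female 2, against 0.59 to 1.13. RFXAP, a regulator of MHC class II genes, was at -1.58 in female 4, where its count was 0 in 16 cells, against 0.18 to 1.16. The ribosomal protein gene RPL10A was at 1.21 in female 3, against 0.45 to 0.57. S100A9 was at 0.74 in female 1, against -0.44 to -0.17, at levels of 0 to 3.33 CPM.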

How the results depend on the processing

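Counts against the mean of the other subtypes were 415 higher and 148 lower, 334 and 184 with DESeq2 size factors, 435 and 576 with no filter on low counts, 716 and 215 in males only, 545 and 320 in females only, and 421 and 151 with no replicate block, while the mean of the animals' own log2 CPM differences, added after seeing the data, gave 352 and 142. Leaving out 1 animal gave 436 to 527 and 154 to 214 there, 205 to 271 and 102 to 157 against M-MZL BC, 266 to 351 and 170 to 251 against M-MBC 2, and 494 to 684 and 394 to 486 against Naive B cells 1; fewer animals must then share a direction. Without Naive B cells 2 and 3 and antibody-secreting cells the counts against the mean were 299 and 190. Among values of named genes under these alternatives, 1483 moved by less than 1 SD over animals, the rest by more, and 0 reversed. With those subtypes left out, 79 values moved by less than 1 SD and 28 by more.

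Mutated against unmutated gave 26 higher and 9 lower genes with no filter, 4 and 8 with DESeq2 size factors, 4 and 7 with unnamed and immunoglobulin genes in library sizes, 7 and 7 with mutated set at 2 or more, 5 and 7 in unswitched cells only, 0 and 0 with DESeq2 and 0 and 0 with no replicate block, and 2 to 9 and 0 to 9 leaving out 1 animal. RBPJ and EGR1 passed in 8 of these 11 alternatives and LDLRAD4 in 4. Males against females gave 130 and 78 with no filter, 20 and 17 with DESeq2, and 5 to 81 and 0 to 77 leaving out 1 animal. The causes were not tested.

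The share difference was 4.68 to 9.002 leaving out 1 animal. Detection was 21.4% (CCL3), 34.9% (CSF1), 57.1% (MYC), 30.8% (EGR3) and 96.1% (MS4A1) without thinning, and 13.2% (CSF1), 21.2% (MYC), 5.76% (EGR3) and 62.5% (MS4A1) at 1000 UMIs. Clones of CDR3 at 90% identity numbered 28 of 2 or more cells and 23 with another subtype. Leaving out 1 animal turned 7 BCR differences: CDR3 length against M-MBC 2 (-0.046 to 0.46), kappa against M-MZL BC (-4.19 to 1.83), IGHV3 against M-MBC 2 (-1.34 to 5.43), clone share against Naive B cells 1 (-0.313 to 0.799), heavy contig UMIs against Naive B cells 1 (-0.40 to 0.60), and cells with a contig against Naive B cells 1 (-2.51 to 0.468) and M-MBC 2 (-0.598 to 0.775). The 16 cells of female 4 and its 115740 UMIs limit its values most.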
